A study of Mus musculus with 12 samples.

Results

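The 35 genes described here are the mouse nuclear receptors other than Pparg and the LXR genes, taken by gene symbol from a table of 54532 genes; all 35 symbols were found. The table held 14 further nuclear receptor genes, which were set aside as the comparison family. RNA was sequenced from 3T3-L1 cells, a mouse fibroblast-like preadipocyte line labelled wild type, on day 6, in 4 groups of 3 libraries. Untreated cells received no agent by their title and treatment label. The other 3 groups received the adipogenic cocktail DMI, which is 0.5 mM IBMX (a phosphodiesterase inhibitor that raises cAMP), 1 uM dexamethasone (a glucocorticoid) and 10 ug/ml insulin. One of them received DMI alone, one DMI with luteolin and one DMI with quercetin. Luteolin is a flavone and quercetin its flavonol counterpart with an added hydroxyl group; the labels used here give no dose for either. All groups are the same cell line, and the labels do not say whether the libraries of a group came from separate cultures. P-values therefore measure the spread between these libraries, which may be technical.

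Nuclear receptors are transcription factors whose activity is set by small lipophilic ligands such as retinoids, thyroid hormone, vitamin D, steroids and fatty acids. Many bind DNA as a pair with a retinoid X receptor (RXR), so the RXR genes serve several hormone pathways. Others, called orphan receptors, have no established natural ligand. In fat cells PPAR gamma with RXR drives differentiation, while chicken ovalbumin upstream promoter transcription factors (Nr2f genes) are known as brakes on it.

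Library totals ran from 14522182 to 19436796 counts. Levels below are CPM, counts scaled to a common library size with TMM-adjusted totals; changes are log2 fold changes from edgeR's quasi-likelihood test with Benjamini-Hochberg adjustment over 14855 genes, called at an adjusted p under 0.05. Adipocyte markers checked the labels: the summed level of 8 markers was 720 to 744 CPM in untreated libraries and 6256 to 22020 CPM in DMI libraries. The third DMI library held the 6256, against 19704 and 22020 in the others. The third luteolin library (5739, against 12115 and 13507) and the third quercetin library (3263, against 6983 and 6828) also had the lowest sums of their groups. Of 5 muscle markers, Myod1, Myog and Ckm had no count in any library, whereas Des and Myh11 were called higher in DMI; the list summed to 1.63 to 2.79 CPM in untreated and 13.5 to 39.1 CPM in DMI libraries. Of 6 preadipocyte and fibroblast markers 5 were called lower in DMI. Hepatocyte, epithelial and endothelial marker lists summed to at most 0.273, 1.85 and 2.98 CPM in any library. The macrophage list reached at most 8.13 CPM, with Adgre1 at 0 throughout. In bulk RNA, fewer cells of a type and less RNA per cell cannot be told apart.

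Of the 35 genes, 22 had enough counts to be tested and 13 did not. Nr0b1, an orphan receptor of steroid-producing tissue, had no count in any library. The bile acid receptor Nr1h4, the xenobiotic receptors Nr1i2 and Nr1i3, the liver factors Hnf4a and Nr5a2, Esrrb and the progesterone receptor Pgr had 1 to 11 counts over all 12 libraries. The remaining 5 were also low. Rarb had 17 counts in all, Rorb 24, Nr4a3 29, the estrogen receptor Esr1 57 and Esr2 67. No group comparison was made for these 13 genes. A count of 0 in a group of 3 libraries allows up to 3 counts by counting error alone.

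Levels were compared between genes only per gene length, in the authors' FPKM (fragments scaled to gene length and depth). In untreated cells the most abundant were Nr2f6 at 29.6 ± 0.954 FPKM, Thra at 28.5 ± 1.41 FPKM and Rxra at 27.4 ± 1.27 FPKM (mean ± SD, n = 3). These 3 differed by about the spread between libraries. Rarg (21.7 ± 1.66 FPKM), Rara (19.7 ± 0.863 FPKM), Rxrb (13.2 ± 0.337 FPKM) and Esrra (11.9 ± 1.08 FPKM) followed. In DMI cells Rxra (43.5 ± 6.79 FPKM) and Esrra (35.9 ± 14.8 FPKM) headed the order, with Thra at 28.5 ± 1.31 FPKM and Nr2f6 at 27.9 ± 2.91 FPKM next. The spread of Esrra covered both of these neighbours. At the low end Rxrg, Vdr, Nr6a1, Nr4a2, Esrrg, Ppara and Thrb were at means of at most 2.40 FPKM in both groups.

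**Figure D1:**
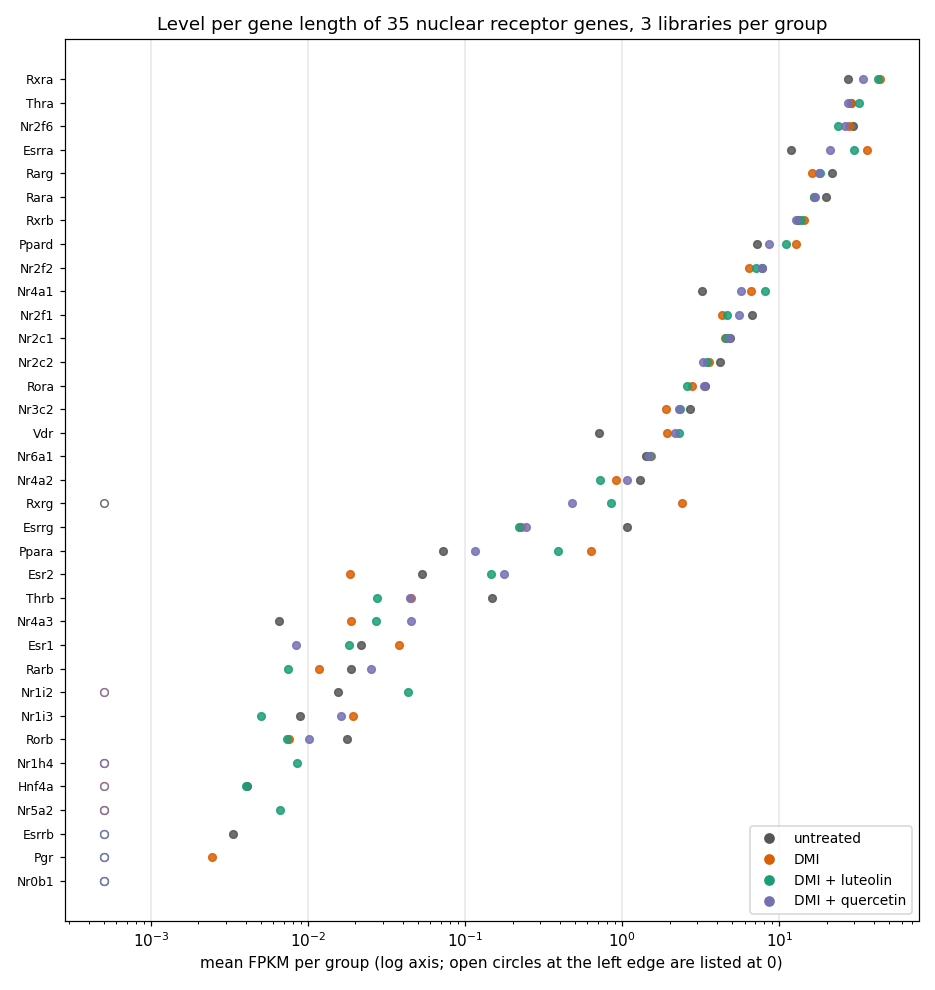
Mean level per gene length (FPKM, log axis) of the 35 nuclear receptor genes, 1 point for each of the 4 groups of 3 libraries. Rxra, Thra and Nr2f6 lie at the top in untreated cells at 27.4, 28.5 and 29.6 FPKM, and Esrra joins them in DMI cells at 35.9 FPKM.

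The first comparison asked how the receptor genes stood in cells given DMI against untreated cells. Of the tested genes 7 rose (Rxrg, Ppara, Esrra, Vdr, Nr4a1, Ppard and Rxra) and 3 fell (Nr2f1, Nr3c2 and Esrrg), so 10 of 22 were called. Over all 14855 genes tested 27.1% were called, 14.7% higher and 12.4% lower. The median log2 change of the 22 genes was -0.14, against -0.04 over all genes. A count over genes that passed the filter includes genes such as Rxrg and Ppara, which passed through the induced groups. Without untreated library 1 or DMI library 2 the count was 5 (beside 15.8% and 12.3% of all genes), and without untreated library 2 or DMI library 1 it was 6 (beside 16.1% and 12.7%). Without library 3 of all induced groups it was 17 (7 higher and 10 lower), beside 52.8% of all genes.

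Among the retinoid X receptors, the shared partners, Rxra and Rxrg rose and Rxrb was not called. Rxrg had no count in any untreated library, and 111, 120 and 22 counts in the DMI libraries (6.98, 8.21 and 1.35 CPM). The third DMI library was low, but still above every untreated library. Against a floor of 3 counts over the untreated group, Rxrg was at least 89.1-fold higher (adjusted p = 0.000846, edgeR). Rxra was at 161, 152 and 147 CPM in untreated libraries and 245, 270.1 and 195 CPM in DMI libraries. Its groups did not overlap, with a log2 change of 0.63 ± 0.19 (SE; adjusted p = 0.0297). It was not called in the fits that left out any 1 of the untreated libraries or DMI library 1 or 2, with adjusted p between 0.0714 and 0.130 there. Rxrb was at 49.9, 51.5 and 49.0 CPM and 48.7, 59.9 and 49.6 CPM, overlapping, with a log2 difference of 0.07 ± 0.19 (SE; adjusted p = 0.808).

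Rxra (chr2:27676440-27762957) and Rxrg (chr1:167598384-167639623) were also the only 2 genes, of the 34 matched by symbol to RefSeq promoters (all but Thra), whose window of 250 bases before to 50 after a start (GRCm38.p6) held the letters AAAGGTCA on either strand, a recognition element of NR4A monomers. These letters contain the nuclear receptor half-site AGGTCA, and stood in 1.51% of 32851 promoters and in 2 of the 52 promoters of the genes described here. The stretches around them are shown 5′ to 3′ on the gene's strand, with the element in capitals, because these 2 receptor genes both rose. Their positions are chr2:27709212-27709279 and chr1:167618145-167618212, both on the plus strand. Both lie inside the span of the gene, at a start downstream of its first base. Ppara, Ppard, Esrra, Vdr and Nr4a1 also rose and had no such match. A match of letters is a description and not a binding site.
Rxra: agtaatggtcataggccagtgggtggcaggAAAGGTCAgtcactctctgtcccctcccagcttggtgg
Rxrg: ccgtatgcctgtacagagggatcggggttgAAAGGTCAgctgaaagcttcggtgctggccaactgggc
The half-site AGGTCA itself was in 16.3% of all promoters and in 9 of the 52 promoters of the genes described here. Direct repeats of AGGTCA spaced by 1 to 5 bases were in none of the 52.

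The other PPAR genes, whose products sense fatty acids, both rose. Ppara (chr15:85734983-85802819), best known for fatty acid oxidation in liver, was at 0.373, 0.358 and 0.121 CPM in untreated and 2.89, 2.60 and 1.78 CPM in DMI libraries. The groups did not overlap, and the log2 change was 3.06 ± 0.58 (SE; adjusted p = 0.00292), from 14 counts in all in untreated cells to 113 in DMI cells. It was called in all 22 alternative fits. With 6, 6 and 2 counts in untreated libraries, it passed the low-count filter through the induced groups, as Rxrg did. Ppard (chr17:28232700-28301474), a widely expressed fatty acid sensor, was at 52.5, 57.0 and 57.0 CPM in untreated and 103, 119 and 64.5 CPM in DMI libraries. The third DMI library lay close above the untreated ones, and the log2 change was 0.78 ± 0.21 (SE; adjusted p = 0.0172). The call was lost without untreated library 1 or 2 or DMI library 1 or 2 (adjusted p 0.0515 to 0.0935, edgeR).

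Vdr (chr15:97854425-97910630), the vitamin D receptor, was at 3.85, 4.53 and 3.92 CPM in untreated and 9.74, 9.51 and 13.2 CPM in DMI libraries. Here the third DMI library was the highest of its group, unlike for Rxrg, Ppara, Esrra, Ppard, Rxra and Nr4a1, for which it was the lowest. The log2 change of Vdr was 1.40 ± 0.18 (SE; adjusted p = 0.000337), called in all 22 alternative fits.

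The retinoic acid and thyroid hormone receptors, which partner with RXR, were not called. Rara was at 90.8, 84.0 and 89.7 CPM in untreated and 69.9, 74.5 and 72.2 CPM in DMI libraries, with a log2 difference of -0.29 ± 0.14 (SE; adjusted p = 0.135). Rarg was at 101, 96.3 and 87.2 CPM and 59.3, 68.6 and 77.4 CPM, with a log2 difference of -0.47 ± 0.22 (SE; adjusted p = 0.137). For both genes every DMI library lay below every untreated one. Rarg was called lower in the authors' deposited table (adjusted p = 0.0213). Thra, the main thyroid hormone receptor gene here, was at 134, 142 and 129 CPM and 126, 138 and 129 CPM, overlapping, with a log2 difference of -0.04 ± 0.14 (SE; adjusted p = 0.8497). Thrb was at 0.807 to 1.73 CPM in untreated and 0.0684 to 0.676 CPM in DMI libraries, too low for a call at an adjusted p of 0.122. Rora, an orphan receptor of the clock and of lipid metabolism, was at 43.2, 44.0 and 47.9 CPM and 37.96, 32.5 and 37.6 CPM, with a log2 difference of -0.32 ± 0.23 (SE; adjusted p = 0.322).

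The estrogen-related receptors, orphan regulators of mitochondrial energy genes, went in opposite directions. Esrra (chr19:6910977-6921813) was at 33.7, 31.4 and 28.2 CPM in untreated and 93.6, 128 and 51.9 CPM in DMI libraries. All DMI libraries lay above the untreated ones, widely spread, and the log2 change was 1.55 ± 0.40 (SE; adjusted p = 0.0139). Without DMI library 2 its adjusted p was 0.0715 (edgeR). Esrrg (chr1:187608791-188214885) was at 6.09, 6.08 and 8.27 CPM in untreated and 1.38, 0.0684 and 2.71 CPM in DMI libraries. Every DMI library was lower, and the log2 change was -2.27 ± 0.67 (SE; adjusted p = 0.0260). That call was lost without any 1 untreated library or without DMI library 1 (adjusted p 0.0556 to 0.0902, edgeR).

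The mineralocorticoid receptor gene Nr3c2 (chr8:76899442-77245012), whose product binds aldosterone and glucocorticoids, fell. It was at 20.7, 17.2 and 16.3 CPM in untreated and 13.1, 11.2 and 12.1 CPM in DMI libraries, without overlap, and the log2 change was -0.57 ± 0.15 (SE; adjusted p = 0.0153). It was not called without untreated library 1 (adjusted p = 0.0760), without DMI library 2 (0.0774) or with no low-count filter (0.0841), all by edgeR. The glucocorticoid receptor gene Nr3c1, not among the 35, was at a mean of 163 CPM in untreated and 163 CPM in DMI cells.

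Of the Nr2f orphan receptors only Nr2f1 was called. Nr2f1 (chr13:78188973-78199757; COUP-TFI) was at 35.9, 38.02 and 31.6 CPM in untreated and 20.7, 20.7 and 24.1 CPM in DMI libraries. All DMI libraries were lower, with a log2 change of -0.69 ± 0.13 (SE; adjusted p = 0.00261), and the call held in all 22 alternative fits. Nr2f2 (COUP-TFII) was at 67.6, 67.3 and 70.6 CPM and 50.4, 50.4 and 64.5 CPM, with a log2 difference of -0.31 ± 0.16 (SE; adjusted p = 0.168). Nr2f6 was at 89.6, 88.2 and 93.9 CPM and 73.4, 85.9 and 89.2 CPM, with a log2 difference of -0.13 ± 0.21 (SE; adjusted p = 0.695). For Nr2f2 every DMI library was below every untreated library, with the third close to them, while the Nr2f6 groups overlapped. Whether Nr2f1 and Nr2f2 differ in their change was not tested.

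The testicular orphan receptors Nr2c1 and Nr2c2 and the germ cell nuclear factor Nr6a1 were not called. Nr2c1 was at 22.6, 20.9 and 25.4 CPM in untreated and 20.7, 20.9 and 20.2 CPM in DMI libraries, with a log2 difference of -0.16 ± 0.14 (SE; adjusted p = 0.454). Nr2c2 was at 66.2, 63.3 and 63.9 CPM and 51.0, 49.2 and 59.5 CPM, with a log2 difference of -0.28 ± 0.16 (SE; adjusted p = 0.207). Nr6a1 was at 13.8, 17.4 and 16.2 CPM and 18.0, 17.4 and 14.02 CPM, with a log2 difference of 0.06 ± 0.17 (SE; adjusted p = 0.828). The Nr2c2 groups did not overlap, and those of the other two did.

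The NR4A genes are immediate-early orphan receptors that many cells induce through cAMP. Nr4a1 (chr15:101254269-101274795) was at 10.5, 14.1 and 10.1 CPM in untreated and 29.4, 26.3 and 13.8 CPM in DMI libraries. The third DMI library fell within the untreated range, and the log2 change was 1.00 ± 0.35 (SE; adjusted p = 0.04998), just under the threshold. Nr4a1 was called in 10 of 22 alternative fits, and its adjusted p reached 0.190 in the others (edgeR, DESeq2 or limma). Nr4a2 was at 4.59 to 5.79 CPM in untreated and 3.46 to 4.06 CPM in DMI libraries, with a log2 difference of -0.55 ± 0.27 (SE; adjusted p = 0.146). Nr4a3 had 0 to 8 counts per library. All 3 genes had 4 copies of the cAMP response half-site TGACG (either strand) in the 250 bases before a RefSeq start, and 76 of 32851 promoters (0.231%) held 4 or more. At least 1 copy was in 20.8% of all promoters. The full palindrome TGACGTCA, which contains this half-site, was in 1.79% of promoters and in none of the NR4A ones. The 3 stretches are shown 5′ to 3′ on the gene's strand, with the half-sites in capitals (TGACG or its reverse complement CGTCA), since the family shares them while its levels differ. They lie at chr15:101266596-101266845 (plus strand), chr2:57124004-57124253 (minus strand) and chr4:48045055-48045304 (plus strand) on GRCm38.p6.
Nr4a1: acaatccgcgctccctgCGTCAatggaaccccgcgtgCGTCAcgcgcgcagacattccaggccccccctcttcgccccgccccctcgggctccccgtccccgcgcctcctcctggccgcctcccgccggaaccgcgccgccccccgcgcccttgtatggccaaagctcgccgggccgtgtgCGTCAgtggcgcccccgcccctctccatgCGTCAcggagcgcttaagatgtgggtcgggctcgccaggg
Nr4a2: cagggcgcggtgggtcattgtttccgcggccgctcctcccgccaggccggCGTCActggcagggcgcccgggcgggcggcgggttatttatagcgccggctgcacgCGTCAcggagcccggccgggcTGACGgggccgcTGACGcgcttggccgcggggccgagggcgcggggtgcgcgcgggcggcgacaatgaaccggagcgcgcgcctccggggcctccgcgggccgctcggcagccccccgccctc
Nr4a3: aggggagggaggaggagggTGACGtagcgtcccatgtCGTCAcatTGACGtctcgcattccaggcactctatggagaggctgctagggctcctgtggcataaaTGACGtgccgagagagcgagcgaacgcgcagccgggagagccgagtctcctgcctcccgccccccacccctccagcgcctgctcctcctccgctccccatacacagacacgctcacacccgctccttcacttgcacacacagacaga
Whether these letters bear on the levels was not tested.

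**Figure D2:**
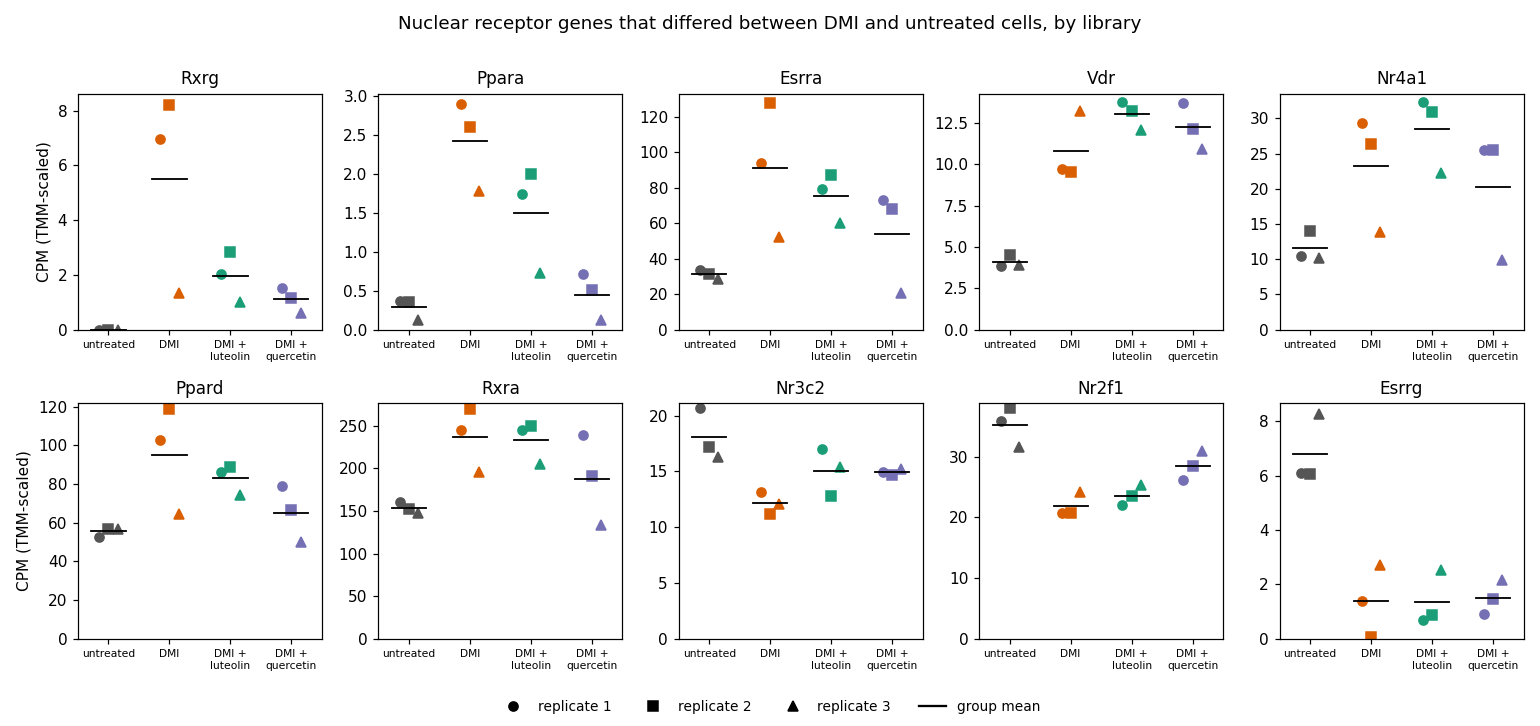
CPM in each of the 12 libraries of the 10 nuclear receptor genes called between DMI and untreated cells, 1 panel per gene; points are libraries and bars are group means. The third DMI library is the lowest of its group for Rxrg (1.35 CPM), Ppara (1.78 CPM), Esrra (51.9 CPM), Ppard (64.5 CPM), Rxra (195 CPM) and Nr4a1 (13.8 CPM), and the highest for Vdr (13.2 CPM).

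Rxrg, Ppara, Esrra, Ppard, Rxra and Nr4a1 were thus lowest in the DMI library whose summed adipocyte markers were also lowest. The part of adipocyte share in these results was not tested. Esrra overlaps Trmt112, Nr2f1 overlaps A830082K12Rik, Nr2f2 overlaps B130024G19Rik, Nr2f6 overlaps Ocel1, Nr2c2 overlaps Mrps25 and Thra overlaps Nr1d1, each on the opposite strand. The sources used here do not say whether counting used strand, and the kit does not mark it, so reads of such a pair cannot be told apart.

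Coregulators of nuclear receptors, from lists of known genes, were called in both directions between DMI and untreated cells. Of 11 coactivators 2 rose and 4 fell, where 14.7% of all genes tested were called higher and 12.4% lower. Ppargc1b, a coactivator of the estrogen-related receptors, rose 10.5-fold and Ncoa1 1.70-fold. Ppargc1a fell 1.63-fold, Ncoa3 1.60-fold, Pprc1 1.59-fold and Carm1 1.38-fold. Among 9 corepressors Nrip1 rose 6.08-fold and Lcor 1.79-fold. The list medians were -0.23 for coactivators and -0.07 for corepressors on the log2 scale, against -0.04 over all genes.

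Known target genes of the receptors were described in the same comparison, where, as above, 14.7% of all genes tested were called higher and 12.4% lower. Of 10 tested PPAR targets 8 rose and none fell. Acadm, of fatty acid oxidation, rose 5.76-fold and Angptl4, a lipase inhibitor, 3.43-fold; Ehhadh went from a mean of 0.0201 to 2.57 CPM, and Ucp3 was at least 42.6-fold higher against the 3-count floor. The PPAR targets Cpt1a and Pdk4 were not called (151 and 131 CPM, and 20.3 and 23.4 CPM). Of 8 estrogen-related receptor targets 6 rose, among them the mitochondrial genes Cycs (7.39-fold), Idh3a (5.16-fold), Acadm and Cs (4.08-fold). Perm1 fell 2.47-fold. All 4 tested thyroid hormone receptor targets rose (Thrsp, Hr, Me1 and Klf9), Hr by 6.001-fold, while Thra itself was not called. Among 8 retinoic acid receptor targets Dhrs3 rose 3.76-fold and Cyp26b1, which degrades retinoic acid, fell 4.82-fold. Of the vitamin D receptor targets Cyp24a1 had no count in any library, S100g rose from a mean of 0.122 to 0.714 CPM and Spp1 fell 3.32-fold. Of 6 targets shared by the mineralocorticoid and glucocorticoid receptors 4 rose (Zbtb16, Klf9, Fkbp5 and Per1), Fkbp5 by 1.96-fold and Per1 by 1.86-fold. Acadm and Pdk4 stand in 2 of these lists, and Klf9 in 2, so the lists are not independent. None of 9 liver targets of the bile acid and xenobiotic receptors had enough counts to be tested. Of these, Apoc3 had no count in untreated cells and 56 counts in DMI cells, at least 19.7-fold higher against the 3-count floor.

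**Figure D3:**
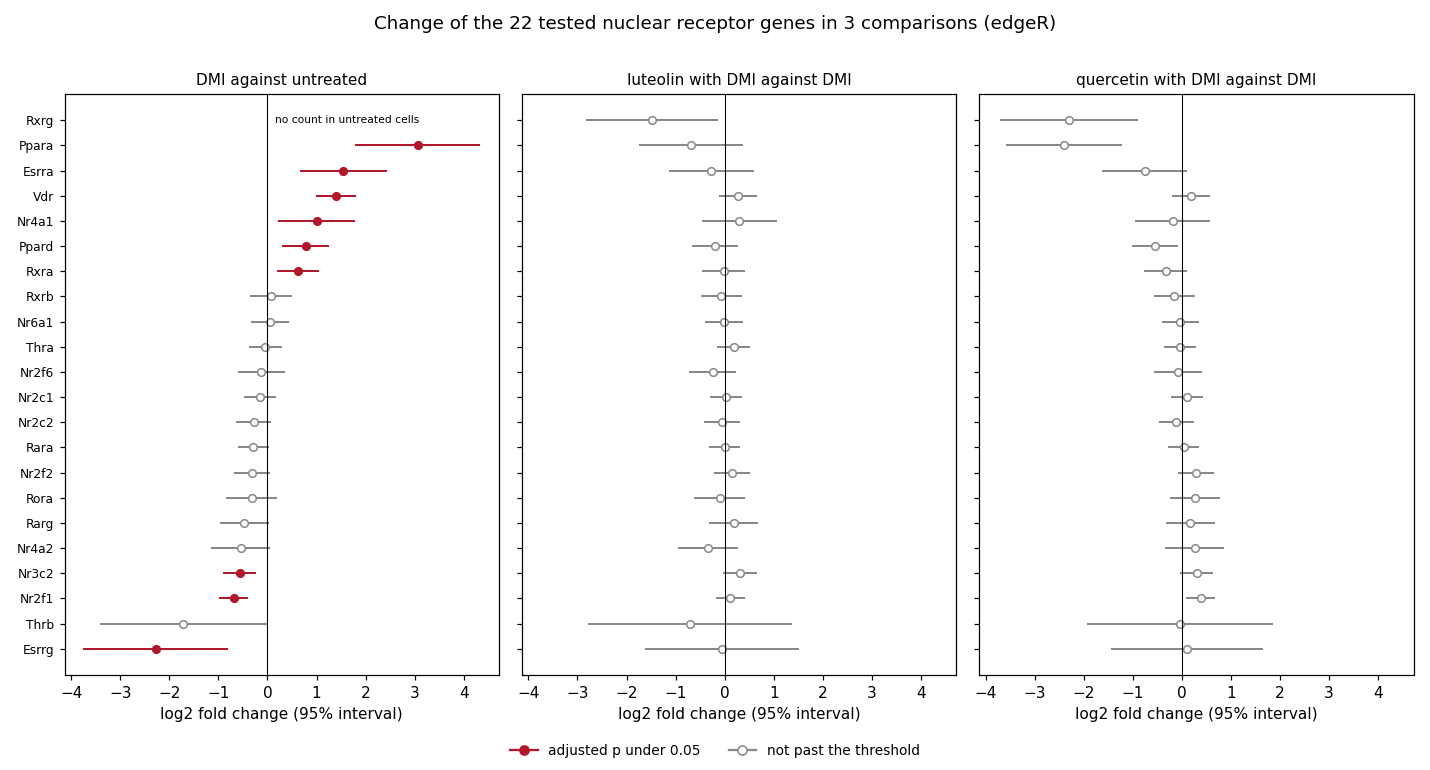
Log2 fold change with its 95% interval of the 22 tested genes for DMI against untreated, and for luteolin or quercetin with DMI against DMI; filled points were called. Ppara rises by 3.06 with DMI, and no point is filled in the 2 compound panels, where Ppara lies at -0.69 with luteolin and -2.40 with quercetin.

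The second question was whether luteolin or quercetin, added to DMI, altered the receptor genes. Both comparisons use the same 3 DMI libraries, so their values are given side by side. With luteolin 0 of the 22 genes were called, where 0.0202% of all genes were. With quercetin 0 of 22 were called, where 1.01% of all genes were. At an unadjusted p under 0.05 these counts were 1 gene (Rxrg) for luteolin and 4 (Ppara, Rxrg, Nr2f1 and Ppard) for quercetin. DESeq2 called 0 with luteolin, beside 0.333% of all genes, and 2 of 22 with quercetin, beside 6.4%. Limma-voom called 0 with either, beside 0% and 0.00673% of all genes. Without library 3 of all induced groups, a choice made after seeing the data, edgeR called 3 of 22 genes with luteolin, beside 10.4% of all genes, and 8 of 22 with quercetin, beside 33.4%. Without DMI library 3 alone it called 0 of 23 with luteolin, beside 1.70% of all genes, and 4 of 23 with quercetin, beside 17.4%.

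Ppara came nearest to the threshold. Beside its DMI values of 2.89, 2.60 and 1.78 CPM, it was at 1.74, 2.00 and 0.731 CPM in luteolin libraries and 0.709, 0.505 and 0.123 CPM in quercetin libraries. All quercetin libraries lay below all DMI libraries, whereas the luteolin libraries overlapped them. The log2 difference from DMI was -0.69 ± 0.48 (SE; adjusted p = 0.940) with luteolin and -2.40 ± 0.54 (SE; adjusted p = 0.0522) with quercetin. It rests on 113 counts in DMI cells and 25 in quercetin cells. In the authors' deposited table the quercetin difference was -2.42 with an adjusted p of 0.00582. Of 22 alternative fits 8 called it, and the adjusted p ran from 0.000109 to 0.240 (edgeR, DESeq2 or limma).

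Rxrg was at 2.04, 2.83 and 0.997 CPM in luteolin libraries and 1.53, 1.16 and 0.613 CPM in quercetin libraries, beside 6.98, 8.21 and 1.35 CPM with DMI. The first and second DMI libraries were far above every library with a compound, and the third DMI library lay among them. The log2 difference was -1.48 ± 0.60 (SE; adjusted p = 0.794) with luteolin and -2.30 ± 0.63 (SE; adjusted p = 0.0956) with quercetin. Each luteolin library was below the DMI library of the same number. With the replicate number as a block the luteolin difference was -1.35 ± 0.35 (SE; adjusted p = 0.223) over all 12 libraries and -1.39 ± 0.28 (SE; adjusted p = 0.0190) in only the 6 libraries compared, a fit chosen after seeing the data that called 6.58% of all genes. It was called in 3 of 22 alternative fits, with adjusted p from 0.00496 to 1.000 (edgeR, DESeq2 or limma). The authors' deposited table gave -2.30 with an adjusted p of 0.00709 for quercetin. Of 22 alternative fits 6 called the quercetin difference, with adjusted p from 1.45e-06 to 0.368 (edgeR, DESeq2 or limma).

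The other receptor genes called with DMI were also compared. Esrra was at 79.2, 87.1 and 60.1 CPM with luteolin and 72.8, 67.9 and 20.8 CPM with quercetin, and its log2 difference from DMI was -0.76 ± 0.39 (SE; adjusted p = 0.286) with quercetin. Ppard was at 86.3, 89.1 and 74.5 CPM and 79.1, 66.7 and 49.9 CPM, with a quercetin difference of -0.55 ± 0.21 (SE; adjusted p = 0.163). Rxra was at 245, 249 and 205 CPM and 239, 191 and 134 CPM, with a quercetin difference of -0.33 ± 0.19 (SE; adjusted p = 0.335). In all 3 the third quercetin library was the lowest of the 12, and both groups with a compound overlapped DMI. Nr4a1 was at 32.4, 30.9 and 22.3 CPM and 25.5, 25.5 and 9.87 CPM, and Vdr at 13.8, 13.2 and 12.1 CPM and 13.7, 12.1 and 10.9 CPM. Their log2 differences from DMI were 0.30 and 0.27 with luteolin and -0.19 and 0.18 with quercetin, with adjusted p of at least 0.567 (edgeR).

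Nr2f1 was at 22.04, 23.5 and 25.3 CPM in luteolin and 26.1, 28.5 and 30.9 CPM in quercetin libraries. All quercetin libraries lay above all DMI libraries and below all untreated ones, with a log2 difference from DMI of 0.38 ± 0.13 (SE; adjusted p = 0.125). Nr3c2 was at 17.04, 12.8 and 15.4 CPM and 14.9, 14.7 and 15.2 CPM, again without overlap of quercetin and DMI, with a quercetin difference of 0.30 ± 0.15 (SE; adjusted p = 0.272). Its luteolin difference was 0.31 ± 0.15 (SE; adjusted p = 0.838). Esrrg was at 0.698, 0.884 and 2.53 CPM and 0.927, 1.46 and 2.15 CPM, within the DMI range.

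The genes not called in any comparison were near their DMI levels in most libraries with a compound. Rara was at 76.1, 65.5 and 74.5 CPM with luteolin and 85.9, 77.1 and 58.7 CPM with quercetin, Rarg at 70.8, 72.4 and 89.9 CPM and 94.1, 90.6 and 46.2 CPM, and Rxrb at 48.2, 50.3 and 52.6 CPM and 58.1, 52.3 and 31.4 CPM. In each the third quercetin library was the lowest of the 12. Thra was at 137, 147 and 161 CPM with luteolin and 149, 135 and 99.1 CPM with quercetin, Nr2f6 at 59.7, 64.6 and 86.1 CPM and 91.5, 93.7 and 49.9 CPM, and Rora at 33.7, 33.3 and 33.5 CPM and 34.3, 30.2 and 65.7 CPM. Thra and Nr2f6 were lowest of all 12 libraries in the third quercetin library, and Rora was highest there. Nr2f2 was at 55.6, 52.9 and 74.5 CPM and 60.1, 62.7 and 79.6 CPM, Nr2c1 at 20.9, 19.4 and 22.5 CPM and 18.5, 22.3 and 25.9 CPM, Nr2c2 at 47.0, 55.8 and 50.9 CPM and 52.4, 37.1 and 58.1 CPM, and Nr6a1 at 17.1, 17.6 and 14.1 CPM and 19.4, 14.6 and 14.5 CPM. Nr4a2 stayed between 1.89 and 5.27 CPM and Thrb between 0.0589 and 0.763 CPM in the 6 libraries with a compound.

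The third quercetin library stood apart from the other 2 by the GC content of transcripts. Over 13036 genes its log2 deviation from their mean was 0.49 at the median among genes at or below the lower quartile of GC (44.6%) and -0.42 among those at or above the upper quartile (54.2%). Measured the same way, the 9 libraries of the other groups had medians between -0.09 and 0.10 in these 2 sets of genes. Of the 17 receptor genes at 5 CPM or more, 11 were lower in this library than in the mean of the other quercetin libraries, 8 of them by more than 0.5 on the log2 scale, and 6 were higher. Esrra deviated by -1.73, Nr4a1 by -1.33, Rarg by -0.99 and Rora by 1.02. Esrra, at 50.26% GC, lies between the quartiles, and Nr2f1, at 60.21% GC, deviated by 0.18. Within their own groups, DMI library 3 and luteolin library 3 were also low for Esrra (-1.07 and -0.46) and Nr4a1 (-0.98 and -0.50). Rarg deviated there by 0.28 and 0.33, and Rora by 0.098 and -0.00014. Without the third quercetin library the quercetin difference from DMI was -1.97 (adjusted p = 0.0926, edgeR) for Ppara, -2.01 (adjusted p = 0.158, edgeR) for Rxrg and -0.35 (adjusted p = 0.487, edgeR) for Esrra. That of Rora turned from 0.27 to -0.15 and that of Nr4a1 from -0.19 to 0.16, none of them called. The part of GC content in these differences was not tested.

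**Figure D4:**
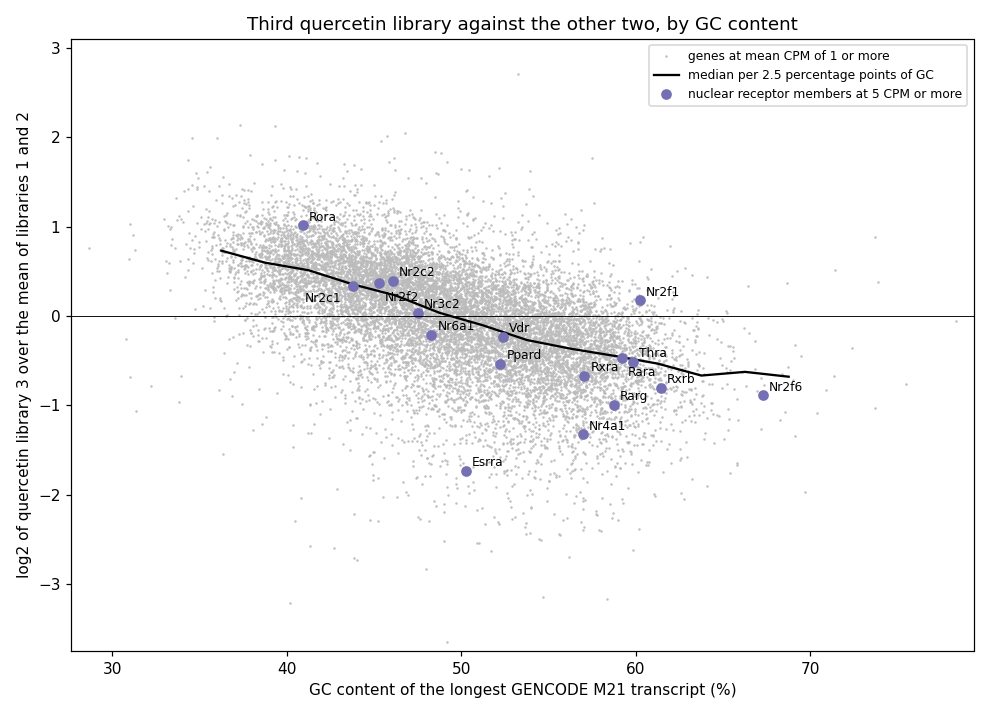
Log2 level in the third quercetin library over the mean of the first and second (vertical axis) against transcript GC content in percent (horizontal axis), for all genes at a mean of 1 CPM or more and, in colour, 17 nuclear receptor genes. The median line falls with GC content; Rora lies at 1.02 at the low end, and Esrra (-1.73) and Nr4a1 (-1.33) lie below the line.

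Quercetin was also set directly against luteolin. Of the 22 genes 0 were called, where 0% of all genes were (0 of 14855; 1327 had an unadjusted p under 0.05, and 2 of the 22). DESeq2 and limma-voom also called 0 of the 22, while the fit without library 3 of all induced groups called 3 (Rarg and Nr2f6 higher, Ppara lower with quercetin) beside 13.8% of all genes. The largest log2 differences were those of Ppara, -1.71 ± 0.54 (SE; adjusted p = 0.541), with a 95% interval from -2.89 to -0.53, and of Rxrg, -0.82 ± 0.64 (SE; adjusted p = 0.660), with an interval from -2.25 to 0.60. For Ppara every quercetin library lay below every luteolin library, and for Rxrg they overlapped. Nr4a2 differed by 0.60 ± 0.27 (SE; adjusted p = 0.552) with an interval from 0.01 to 1.18. Nr2f1 differed by 0.27 ± 0.13 (SE; adjusted p = 0.555) with an interval from -0.002 to 0.55, again without overlap. For the abundant Rxra the interval was -0.72 to 0.10, for Thra -0.53 to 0.09 and for Esrra -1.33 to 0.36. These intervals are for single genes, without adjustment. As the labels give no doses, whether the compounds were matched in dose is not known here.

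The coregulator and target lists had 0 genes called with luteolin. With quercetin the 1 call among them was Tgm2, a transglutaminase gene on the retinoic acid receptor list, at a mean of 14.2 CPM with DMI and 3.16 CPM with quercetin, with a log2 change of -2.15 ± 0.39 (SE; adjusted p = 0.0420). Ppargc1b was at 24.0 CPM with DMI, 21.5 with luteolin and 8.22 with quercetin. Its log2 difference was -0.16 ± 0.48 (SE; adjusted p = 0.998) and -1.54 ± 0.50 (SE; adjusted p = 0.120). The median log2 difference from DMI of the 10 tested PPAR targets was -0.51 with luteolin and -0.64 with quercetin. In the same order it was -0.41 and -0.90 for the 8 estrogen-related receptor targets, -0.88 and -1.50 for the 4 thyroid hormone receptor targets and -0.69 and -0.21 for the 8 retinoic acid receptor targets. The 6 targets shared by the mineralocorticoid and glucocorticoid receptors were at -0.03 and -0.03, and the 2 vitamin D receptor targets at 0.06 and 0.62. Coactivators were at 0.02 and -0.05 and corepressors at -0.00 and -0.18. Over all genes the medians were -0.02 and 0.02, and for the 8 adipocyte markers they were -0.62 and -1.54, with none of the 8 called. The part of adipocyte share in the list medians was not tested.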

How the data were processed

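RNA of 12 libraries was sequenced; groups and replicate numbers were read from titles and treatment labels. All samples, untreated ones included, carry one treatment protocol text. The authors deposited raw counts per gene. The submitters' processing notes name featureCounts 1.5.0-p3, CASAVA 1.8.2 and mm9. However, 98.3% of gene positions equal GENCODE M21 on GRCm38, the build printed here. The authors also deposited FPKM values and gene lengths, log2 fold changes and p-values of their own comparisons, with a tool not stated in the sources used here. FPKM served only to compare levels between genes.

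The counts were tested with edgeR 4.0.16 (R 4.3.3): filterByExpr, TMM, quasi-likelihood, 1 term per group over all 12 libraries, Benjamini-Hochberg over 14855 genes in each of 4 comparisons, threshold 0.05. Standard errors are the log2 change divided by the root of F. The script was tested on simulated data. Replicates all differed by more than sampling noise (lowest chi-square per gene 2.68). The 3-count floor covers only counting error.

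The 35 genes and the target, coregulator and marker lists were chosen with earlier results of these data known. Genes past the threshold, or at a mean of 5 CPM or more, are given in every library; other lists name up to 4 called genes per direction, and a few of their genes are not reported here. Same-numbered luteolin and DMI libraries deviated together (r = 0.261, 0.337 and 0.590), which counts as pairing by the rule that every pair exceed 0.1. However, luteolin library 2 correlated best with DMI library 1, not with DMI library 2. The labels do not say what a number marks. Alternatives were RLE scaling, library totals, 2 other low-count filters, DESeq2 1.42.0, limma-voom (limma 3.58.1), only 6 libraries, the replicate block and leaving out each library. After seeing the data, the third library of each induced group was left out and the block fitted in only 6 libraries. Promoters are RefSeq's for GRCm38.p6; 34 of 35 genes matched.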

Additional observations from a re-analysis of the deposited data

How the results depend on the processing

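Of 10 receptor genes called between DMI and untreated cells, Ppara, Rxrg, Vdr and Nr2f1 were called in all 22 alternative fits, Esrra in 21, Nr3c2 in 19, Ppard and Esrrg in 18, Rxra in 17 and Nr4a1 in 10. Leaving out single libraries gave 5 to 12 calls there. Calls numbered 5 without untreated library 1 (beside 15.8% of all genes) or DMI library 2 (12.3%). They numbered 6 without untreated library 2 (16.1%) or DMI library 1 (12.7%), and 12 without quercetin library 3 (36.6%). Single left-out libraries gave 0 calls for luteolin against DMI and 0 to 4 for quercetin against DMI. The 4 came without DMI library 3, beside 17.4% of all genes. Leaving out luteolin library 3 or quercetin library 1 gave 1 call, beside 1.79% and 3.78%. Without a low-count filter calls numbered 5 (quercetin and DMI), 1 (luteolin and DMI) and 1 (quercetin and luteolin). DESeq2 gave 2 calls for quercetin against DMI, beside 6.4% of all genes. With the replicate block over all 12 libraries, DMI and untreated cells differed in 10 genes, and quercetin and DMI in 2. Luteolin and DMI differed in 0, and the compounds in 0. The shares of all genes called were, in this order, 31.4%, 9.39%, 0.168% and 0.0942%. In only 6 libraries the replicate block gave 1 for luteolin and 2 for quercetin against DMI, beside 6.58% and 5% of all genes. Library 3 of all induced groups was also left out, a choice made after seeing the data. Calls then numbered 17 (DMI and untreated), 8 (quercetin and DMI), 3 (luteolin and DMI) and 3 (quercetin and luteolin). The shares of all genes called in that fit were, in this order, 52.8%, 33.4%, 10.4% and 13.8%. There Rarg was called higher with quercetin than with luteolin (log2 0.37, adjusted p = 0.0218, edgeR), against -0.01 with all libraries. The causes were not tested. Shares of all genes called moved with these counts, between 12.3% and 52.8% for DMI and untreated cells. Of 78 uncalled values 33 changed sign in some fit. Genes under about 1 CPM, such as Thrb, rest on few counts, so differences there were not detectable at this depth.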

Other observations

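A known target of receptors with few counts was called. Greb1, an estrogen and progesterone receptor target, rose from 0 to 1 count per untreated library to a mean of 13.6 CPM in DMI libraries (adjusted p = 0.000193, edgeR), while Esr1 had 57 counts, Esr2 67 and Pgr 1 over all 12 libraries. Greb1 was at 4.53 CPM with luteolin and 2.57 CPM with quercetin; its log2 difference from DMI with quercetin was -2.39 (adjusted p = 0.0543, edgeR). Tff1, another such target, had no count.

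Among the 14 other nuclear receptor genes 8 were tested, of which 3 rose and 1 fell with DMI. The clock repressor Nr1d2 fell 1.65-fold. Esr2 had 19 counts in the third quercetin library and 0 to 13 elsewhere.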
